A study of Mus musculus with 4 samples.

Results

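Regulatory T cells marked by Foxp3 were examined in single-cell libraries of kidneys from aged mice given BPTES or its vehicle. The cells were chosen by their own counts: a barcode was taken as a regulatory T cell when it held at least 2 UMIs of Cd3d, Cd3e and Cd3g together, at least 1 UMI of Foxp3 and none of Cd8a, Cd8b1 or Cd79a. It could hold at most 2 UMIs of the proliferation genes Mki67 and Top2a, at most 9 of the complement genes C1qa, C1qb and C1qc, and at most 3 of the proximal tubule genes Lrp2 and Slc34a1. A UMI (unique molecular identifier) stands for 1 captured transcript. The rule found 145 cells among 50605 barcodes past the filters, which is 4.0% of the 3627 barcodes that met the same limits on CD3 and on other cell types. By library, the cells numbered 28 and 22 under BPTES and 38 and 57 under DMSO.

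All mice were male C57BL/6 animals aged 19 months without a stated genetic change, and they received BPTES or DMSO for 1 month. BPTES is an inhibitor of glutamine breakdown, the step that turns glutamine into glutamate, and DMSO is the solvent given alone. Each group comprised 2 libraries made with 10x Genomics GEM-X chemistry from liberase-digested kidney, and each library mixed 20000 sorted CD45-negative with 9000 sorted CD45-positive cells. That mixture fixed the share of leukocytes, so numbers of regulatory T cells are given relative to other T cells.

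Regulatory T cells are CD4 T cells that restrain other lymphocytes, and their identity depends on the transcription factor Foxp3, encoded on the X chromosome. They bind interleukin-2 through a high-affinity receptor whose alpha chain is Il2ra, and they limit costimulation through Ctla4, which removes the ligands of Cd28 from antigen-presenting cells. In non-lymphoid tissues many of them carry the interleukin-33 receptor Il1rl1 (ST2) and the transcription factor Gata3 and can release amphiregulin (Areg), a growth factor for epithelium. In the kidney they are known for limiting inflammation after injury.

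The 4 libraries held between 17907 and 20091 deposited barcodes and between 249881074 and 297947661 UMIs. Summed over regulatory T cells, BPTES libraries gave 320405 and 410823 UMIs and DMSO libraries 415850 and 785751, with medians per cell between 10921.5 and 13847 UMIs. BPTES replicate 2 had the fewest cells and the highest median, and 4 of its 22 cells held between 38585 and 50850 UMIs, so that its summed levels rest on few cells. Of the cells over 30000 UMIs the other 3 were in DMSO replicate 2, with 35358 to 72707 UMIs. The regulatory T sum of BPTES replicate 2 also stood apart in transcripts of antigen-presenting cells. Levels are given as CPM, the UMIs of a gene in every 1000000 UMIs of the sum. The 12 macrophage markers made up 9284 CPM there, with 10 of 12 detected and C1qb, which the gate limits, and Cd5l at 0, against 515 CPM in BPTES replicate 1 and 652 and 1866 CPM under DMSO. Of the 3814 UMIs behind that value, 3303 were of Cd74, the invariant chain of antigen presentation, and 289 of the protease Ctss, while C1qa had 3 and the macrophage receptor Adgre1 8. The 10 dendritic cell markers were at 501 CPM there, 146 of their 206 UMIs being of Cd209a, against 36.1 to 90.4 CPM in the other libraries. Other sums stood apart in other markers. The 15 markers of CD8 T, NK and gamma-delta T cells were at 771 CPM in BPTES replicate 1 against 183 to 403 CPM elsewhere, with Eomes and Trdc at 0 (Cd8a and Cd8b1 were at 0 in every library by the gate), and all 35 Gzma and 17 Ncr1 UMIs there came from 1 cell each. The 10 monocyte and neutrophil markers were at 1527 CPM in DMSO replicate 1 against 184 to 329 CPM, 320 UMIs being S100a9 of 1 cell. The 10 markers of non-proximal epithelium were at 353 CPM in DMSO replicate 2 against 17.0 to 43.7 CPM. The part of all these transcripts in the results below was not tested. As a measurement beside them, fits without barcodes that held over 0.5% of UMIs from markers of macrophages, other myeloid cells, B cells, non-proximal epithelium, endothelium or stroma, which removed 4 of the 22 cells of BPTES replicate 2 and 1 to 3 in each other library, are given where they end or add a call of a gene named below. A doublet caller marked 10 of the 145 cells, 3 of them in BPTES replicate 2. Pairs of libraries shared between 90 and 114 barcode sequences, and 2 regulatory T barcodes had a sequence that also occurred in another library.

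The label was first checked against the share of Foxp3 detections in cells that should lack the gene. At least 1 Foxp3 UMI was found in 31 of 20560 proximal tubule barcodes (0.151%), 5 of 3668 macrophage barcodes (0.136%) and 2 of 1298 B cell barcodes (0.154%). In CD8 T cells, gated by the same limits with at least 2 UMIs of Cd8a and Cd8b1 and none of Cd4, it was found in 4 of 1311 (0.305%). Barcodes with both Cd8 and Cd4 UMIs were thus not part of this share. Among all CD3 barcodes it was found in 177 of 3627 (4.88%), although their median depths, 11544 to 11837.5 UMIs, lay below the 16415 to 20404.5 UMIs of the proximal tubule barcodes. The share among CD3 barcodes was thus above that in each of the other types.

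The weakest members held a single Foxp3 UMI, and other markers were used to describe them. Of the 145 cells, 27 held 1 Foxp3 UMI, 19 held 2 and 99 held 3 or more, with a median of 4 and a maximum of 18. Ikzf2 (Helios), a transcription factor of regulatory T cells, stood at 2021 CPM in the cells with 1 Foxp3 UMI, 2610 CPM in those with 2 and 2648 CPM in those with 3 or more. Conventional CD4 T cells, gated by the same limits with Cd4 and without Foxp3 (947 barcodes), held 182 CPM. For Ikzf2, cells at the lowest permitted Foxp3 count thus lay nearer to the other members than to the barcodes without Foxp3. Ctla4 followed the same order with 1124, 1384 and 2030 CPM against 401 CPM, and the costimulatory receptor Tnfrsf4 (OX40) with 216, 318 and 522 CPM against 86.6 CPM, so that for Tnfrsf4 the cells with 1 Foxp3 UMI lay between the others and the barcodes outside. Il2ra (185, 99.1 and 275 CPM against 32.6 CPM), Tnfrsf18 (216, 202 and 411 against 98.8 CPM) and Izumo1r (205, 153 and 224 against 87.3 CPM) broke this order. So did Icos, at 549, 335 and 423 CPM against 324 CPM. All these values lay above those of the barcodes without Foxp3. Cd4, which the gate did not require, was detected in 17 of the 27, 15 of the 19 and 82 of the 99 cells. Trac, the constant region of the T cell receptor alpha chain, was between 632 and 771 CPM in the members and 622 CPM outside.

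**Figure D1:**
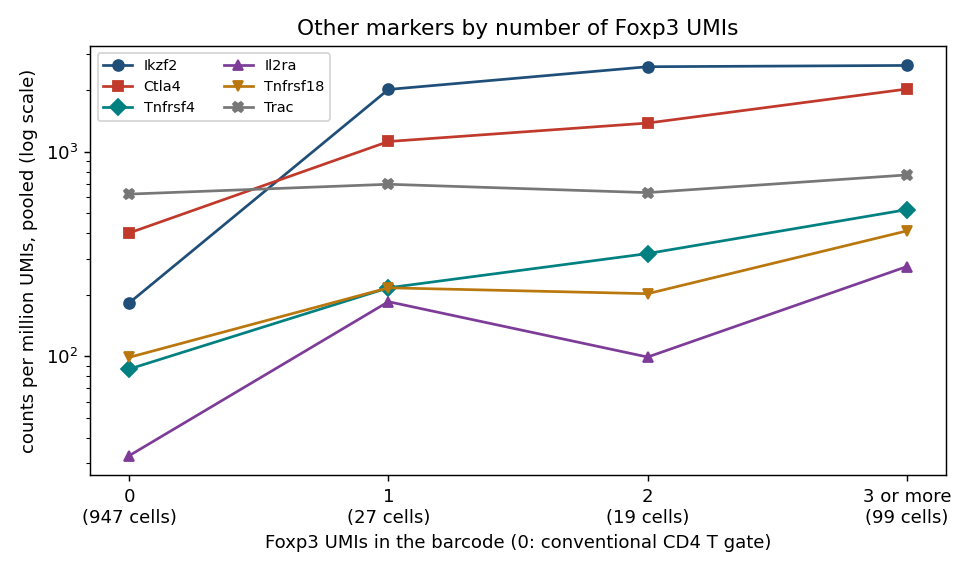
CPM pooled over libraries of 6 T cell genes (vertical axis, log scale) by the number of Foxp3 UMIs in the barcode (horizontal axis); 0 stands for conventional CD4 T cells and the number of cells is under each step. Ikzf2 stands at 182 CPM without Foxp3 and at 2021 CPM or more with it, while Trac stays between 622 and 771 CPM.

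The share of members with the other defining transcripts varied by gene. Ikzf2 was detected in 143 of 145 cells, Ctla4 in 136, Tnfrsf18 (GITR) in 125, Icos in 119, Tnfrsf4 in 118, Izumo1r in 103 and Il2ra in 99. Ikzf4 was detected in 79 and Lrrc32 in 22. In conventional CD4 T cells, at a median of 10720 UMIs, Ikzf2 was found in 33.4% and Il2ra in 16.6%. Foxp3 lies on chromosome X from 7573644 to 7595245 (plus strand, GRCm38), Ctla4 on chromosome 1 from 60887000 to 60915832 (plus strand) and Ikzf2 on chromosome 1 from 69531214 to 69687245 (minus strand). All are protein-coding genes in GENCODE M21.

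Whether BPTES changed the number of regulatory T cells was addressed through their share of CD3 barcodes. The share was 3.32% (exact 95% binomial interval 2.22 to 4.76) and 2.29% (1.44 to 3.45) under BPTES. Under DMSO it was 4.02% (2.86 to 5.47) and 6.50% (4.96 to 8.34). Both BPTES libraries lay below both DMSO libraries, but the intervals of both BPTES libraries overlapped that of DMSO replicate 1. These intervals cover counting error only. The group means were 2.80% ± 0.725 and 5.26% ± 1.76 (SD, n = 2), a difference of -0.91 on the log2 scale. The exact two-sided permutation test gave p = 0.33, the smallest value that 2 against 2 libraries can give, so this test cannot reach 0.05 with 4 libraries.

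The ratio depended on single libraries. Without DMSO replicate 2 it was -0.52 on the log2 scale, and without DMSO replicate 1 it was -1.21. With the C1q and proximal tubule genes required to be at 0, which left 55 cells, the groups overlapped and the difference was -0.65 (exact permutation p = 0.667). CD3 barcodes with at least 2000 UMIs were also thinned to 2000 UMIs for Foxp3 alone, with all other limits kept at full depth. This gave shares of 2.04% and 0.839% for BPTES and of 2.56% and 3.95% for DMSO. With Foxp3 counted at equal depth the groups did not overlap in this single random draw. It rested on 17 and 8 cells against 24 and 34. The interval of BPTES replicate 1 (1.19 to 3.24) overlapped those of DMSO replicates 1 (1.65 to 3.78) and 2 (2.75 to 5.47). Conventional CD4 T cells made up 24.9% and 25.6% of CD3 barcodes under BPTES and 27.4% and 26.5% under DMSO, and CD8 T cells 33.8% and 35.3% against 33.6% and 41.6%. Relative to regulatory plus conventional CD4 T cells, regulatory T cells were 11.8% and 8.21% against 12.8% and 19.7%, with BPTES again below DMSO in all pairs of libraries (exact permutation p = 0.33).

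**Figure D2:**
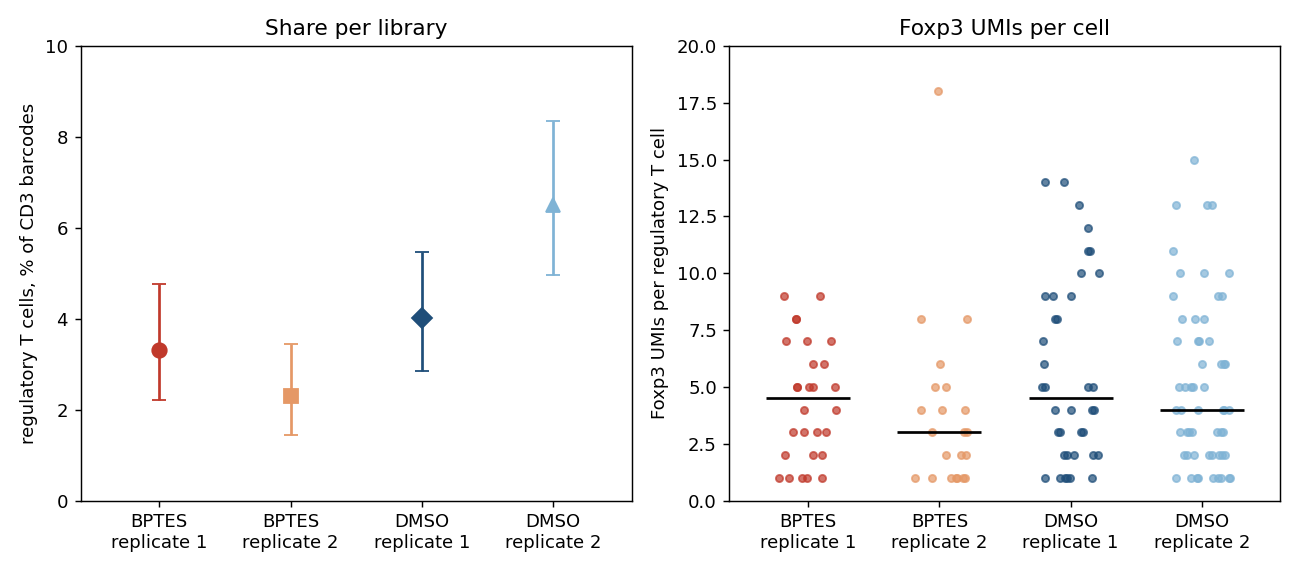
Left: regulatory T cells as a percentage of CD3 barcodes in each library, with exact 95% binomial intervals as bars. Right: Foxp3 UMIs in each regulatory T cell (points) with the median of each library (line). The shares run from 2.29% to 6.50%, with both BPTES libraries below both DMSO libraries, and the medians lie between 3 and 4.5 UMIs.

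Foxp3 counts within the members belong to the gate and carry no test. BPTES libraries had medians of 4.5 and 3 UMIs per cell, and DMSO libraries had medians of 4.5 and 4. The library with the median of 3, BPTES replicate 2, also held the cell with the most Foxp3 UMIs.

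The transcripts that set regulatory T cells apart from conventional CD4 T cells of the same libraries were then tested. UMIs were summed per library and class, and 9659 genes were compared with edgeR, library as a block. Of these, 605 passed an adjusted p of 0.05 (6.26%), 335 higher (3.47%) and 270 lower (2.8%) in regulatory T cells. For 1260 genes (13%) the 2 classes did not overlap. Genes of the gate are left out of these counts and of the list counts below, but not of the marker sums above. Some genes named below reached the low-count filter only with the sums of the class where they were higher. Among the higher genes these included Klrg1, Ikzf4, Ncmap, Neb, Itgae and Tnfrsf8. Among the lower genes they included Il12rb2, Ifng, 4933406I18Rik, Igfbp4, Ifit1, Tgfbr3, Itga1, Cd40lg and Mx1. The filter thus favoured the direction of their differences. Without the barcodes rich in markers of other cell types the calls of Cd40lg (adjusted p = 0.0567), Id3 (adjusted p = 0.0957), Zap70 (adjusted p = 0.0600) and Apoe were lost. Without predicted doublets those of Cd40lg (adjusted p = 0.0807), Tcf7 (adjusted p = 0.0610), Id3 (0.72, adjusted p = 0.749), Spp1 (-1.19, adjusted p = 0.0534), Tnf (adjusted p = 0.173), Zap70 (adjusted p = 0.0617) and Ccl5 (adjusted p = 0.0744) were lost. The number of calls fell to 339 without DMSO replicate 1 and to 309 without DMSO replicate 2, and rose to 944 without the barcodes rich in markers of other cell types. Calls named below held in each of the 4 fits that left out 1 library unless stated. Of 101 called genes followed through the alternatives, 34 lost the call with the C1q and proximal tubule genes required to be at 0. Only 54 kept the call there, and the remaining genes did not enter that fit. A few of the 101 also did not enter the fits without predicted doublets or without barcodes rich in markers of other cell types. With at least 2 Foxp3 UMIs required, 13 lost the call. Of these losses, only those of Il1rl1 and Gata3 are given below.

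Of 11 genes that define regulatory T cells, 8 were higher and none was lower, with a median difference of 2.26 on the log2 scale against -0.0043 over all genes tested. Each of the 8 was called in each of the 4 fits that left out 1 library. For Lrrc32 among them the direction was fixed by the low-count filter (below). Ikzf2 was at 3022, 1668, 2997 and 2568 CPM in the regulatory T sums of BPTES replicates 1 and 2 and DMSO replicates 1 and 2, and at 175, 189, 117 and 262 CPM in the conventional CD4 T sums. The classes did not overlap, and the difference was 3.80 on the log2 scale (SE 0.28, adjusted p = 5.59e-05). Its relative Ikzf4 (Eos) was at 116, 62.6, 139 and 124 CPM against 2.04, 3.67, 6.35 and 11.5 CPM, a difference of 4.26 (SE 0.32). Both factors were lowest in BPTES replicate 2 among the regulatory T sums.

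In the TNF receptor family list 5 of 18 genes were higher and 2 lower, and in the list of T cell receptor signalling and costimulation 1 of 23 was higher and 4 were lower. Of these calls, 4 of 7 in the first list and 0 of 5 in the second held in each of the 4 fits that left out 1 library. Il2ra was at 186, 120, 313 and 279 CPM against 38.4, 29.7, 20.9 and 44.7 CPM, a difference of 2.72 (SE 0.31, adjusted p = 0.00184). Tnfrsf4 was at 290, 258, 498 and 569 CPM against 52.6, 62.0, 79.4 and 151 CPM (2.26, SE 0.16, adjusted p = 4.92e-06). Tnfrsf18 differed by 1.75 (SE 0.18) and the TNF receptor family member Tnfrsf8 (CD30) by 2.96 (SE 0.45). The classes did not overlap for any of these receptors, and DMSO replicate 2 held the highest conventional level of each. Icos, which conventional T cells also carry, was at 655, 543, 398 and 326 CPM against 333, 322, 298 and 360 CPM. It did not pass the test (0.50, SE 0.18, adjusted p = 0.156), and its classes overlapped.

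Among 19 tested genes through which regulatory T cells suppress, 7 were higher and none lower. Ctla4 was at 2030, 2093, 1969 and 1489 CPM against 278, 431, 356 and 545 CPM, a difference of 2.27 (SE 0.22, adjusted p = 7.82e-05). The integrin chain Itgb8, which frees TGF-beta from its latent form, was at 214, 144, 161 and 209 CPM against 19.6, 32.3, 13.0 and 36.0 CPM (2.90, SE 0.25). Lrrc32 (GARP), which holds latent TGF-beta on the cell surface, was low in both, with 35 UMIs in all regulatory T sums together and 12 in the conventional sums, and differed by 4.12 (SE 0.70). Lrrc32 entered the test through the regulatory T sums alone, so the direction of its difference was fixed by the low-count filter. The classes did not overlap for Itgb8 or Lrrc32.

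The inhibitory receptor Pdcd1 (PD-1) differed by 1.56 (SE 0.19), the semaphorin receptor Nrp1 by 1.23 (SE 0.15) and the secreted fibrinogen-like protein Fgl2 by 1.33 (SE 0.17). Cd83, a surface protein of activated lymphocytes, passed the test over all libraries (1.62, SE 0.31) and lost the call without BPTES replicate 2 (1.42, adjusted p = 0.0672), DMSO replicate 1 (1.56, adjusted p = 0.110) or DMSO replicate 2 (1.47, adjusted p = 0.132). The cytokine transcripts of suppression were sparse or similar between classes. Il10 was detected in 11 of 145 cells, with 20, 0, 64 and 7 UMIs in the 4 regulatory T sums. Tgfb1 was at 113, 159, 164 and 194 CPM against 107, 140, 129 and 103 CPM, with overlapping classes (0.41, SE 0.17, adjusted p = 0.227). Il12a had no UMI in the 145 cells.

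Genes described in regulatory T cells of non-lymphoid tissue moved mainly upward: of 21 tested, 7 were higher and 1 was lower. Il1rl1 was at 252, 277, 388 and 477 CPM in regulatory T cells against 17.1, 13.2, 17.1 and 22.4 CPM. No library overlapped, and the difference was 4.30 (SE 0.17, adjusted p = 1.80e-08). With the C1q and proximal tubule genes at 0, the Il1rl1 difference was 3.56 with an adjusted p of 0.0601. Gata3 was at 280, 279, 457 and 457 CPM against 133, 145, 129 and 144 CPM (1.39, SE 0.17), and at 0.78 under the same strict gate (adjusted p = 0.0508).

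Itgae (CD103), which binds E-cadherin on epithelium, was at 167, 54.8, 252 and 265 CPM against 5.30, 7.33, 13.3 and 29.7 CPM (3.77, SE 0.32). The chemokine receptor Ccr8 was at 120, 62.6, 166 and 139 CPM against 18.8, 27.5, 27.0 and 26.6 CPM (2.25, SE 0.24). Neb, which encodes the muscle thin-filament protein nebulin, was at 305, 146, 310 and 448 CPM against 8.98, 7.70, 3.17 and 14.7 CPM (5.14, SE 0.32). For all of Itgae, Ccr8 and Neb, BPTES replicate 2 was the lowest regulatory T sum and still lay above every conventional sum. Cxcr6, a receptor of tissue-resident T cells, went the other way: it was at 91.3, 57.4, 22 and 85.9 CPM against 408, 412, 381 and 320 CPM (-2.58, SE 0.31, adjusted p = 0.00344).

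Klrg1, an inhibitory lectin-like receptor of differentiated lymphocytes, was at 78.7, 107, 222 and 248 CPM against 8.16, 5.13, 2.54 and 2.10 CPM. Klrg1 reached the low-count filter only with the regulatory T sums, which favoured this direction. The difference was 5.16 (SE 0.68, adjusted p = 0.0231), and the call was lost without BPTES replicate 2 (5.43, adjusted p = 0.0717) or DMSO replicate 1 (4.74, adjusted p = 0.0556). Areg was at 365, 70.5, 134 and 310 CPM against 19.6, 32.3, 26.7 and 24.1 CPM, and Tnfrsf9 (4-1BB) at 271, 67.9, 379 and 779 CPM against 7.75, 21.3, 22.9 and 48.9 CPM. Neither group of sums overlapped, yet neither gene passed the test (Areg 2.93, SE 0.63, adjusted p = 0.109; Tnfrsf9 3.76, SE 0.60, adjusted p = 0.0521). The transcription factors Batf (0.46) and Irf4 (-0.48) and the nuclear receptor Pparg (1.72) did not pass it either.

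**Figure D3:**
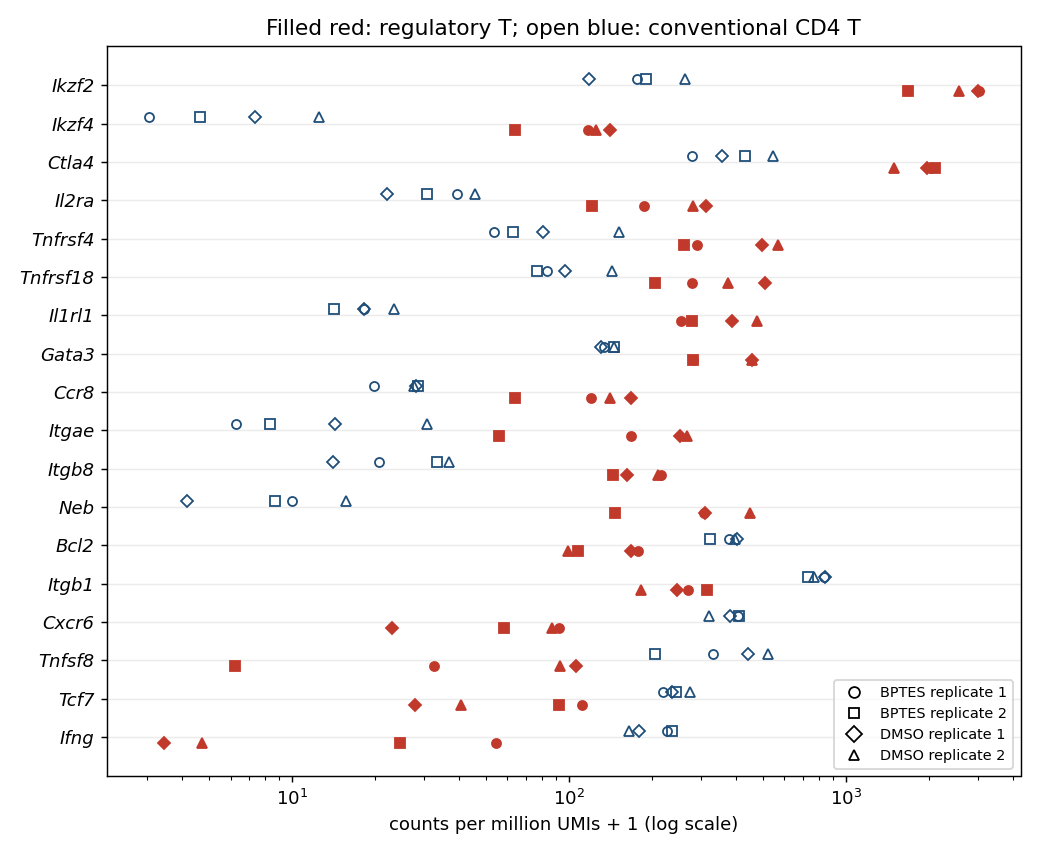
CPM plus 1 (horizontal axis, log scale) of 18 genes in each library's regulatory T sum (filled red) and conventional CD4 T sum (open blue); symbols mark the libraries. The regulatory T sums lie above all conventional sums from Ikzf2 to Neb in the upper rows and below them from Bcl2 to Ifng in the lower rows.

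The other genes with the largest positive differences had less familiar roles in T cells. Dscaml1, a homophilic adhesion molecule known from neurons, was at 12.6, 52.2, 149 and 132 CPM against 0, 0.733, 3.81 and 2.45 CPM (5.61, SE 0.33, adjusted p = 1.05e-06). It entered the test through the regulatory T sums alone, so the direction of its difference was fixed by the low-count filter. Ncmap, a myelin-associated membrane protein, was at 75.6, 78.3, 92.8 and 84.7 CPM against 2.04, 5.50, 8.25 and 7.34 CPM (3.85, SE 0.30). The dynein adaptor Bicd1 differed by 2.95 (SE 0.25), the motor protein Myo1e by 2.81 (SE 0.18), the MAP kinase phosphatase Dusp4 by 2.80 (SE 0.31) and the sorting nexin Snx9 by 2.53 (SE 0.32). Nav2 differed by 2.60 (SE 0.38) and lost its call without DMSO replicate 1 (2.40, adjusted p = 0.0508). Both BPTES libraries held less Dscaml1 than both DMSO libraries, while the Ncmap values lay close together.

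Transcription factors of T cell lineages split in both directions, with 6 of 28 higher and 4 lower. Besides Ikzf2, Ikzf4 and Gata3, the higher factors were Tox (1.36, SE 0.19), the NF-kB subunit Rel (0.94, SE 0.15) and Id3 (1.42, SE 0.38). The Id3 call was lost without BPTES replicate 1 (1.28, adjusted p = 0.191), BPTES replicate 2 (1.37, adjusted p = 0.0794) or DMSO replicate 1 (1.27, adjusted p = 0.169). The lower factors were Eomes, of which all regulatory T sums held 2 UMIs (-4.59, SE 0.63), Ikzf1 (-1.23, SE 0.16), Runx3 (-0.96, SE 0.16) and Bach2 (-1.01, SE 0.17). Eomes entered the test through the conventional sums alone, so the direction of its difference was fixed by the low-count filter. The T helper 1 factor Tbx21 was at 164, 31.3, 34.2 and 21.2 CPM against 204, 184, 224 and 199 CPM and did not pass the test (-2.05, SE 0.59, adjusted p = 0.192).

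In the NF-kB pathway 5 of 15 genes were higher and none lower, with a median of 0.38. Nfkb1 was at 812, 676, 911 and 1306 CPM against 388, 446, 429 and 581 CPM (0.98, SE 0.16), and Nfkb1 and Rel were the members called in each of the 4 fits that left out 1 library. Of 16 genes of interleukin-2 and STAT5 signalling, 4 were higher and 1 lower, and 3 of these 5 calls (Il2ra, Pim1 and Bcl2) held in each of the 4 fits that left out 1 library, while those of Stat5a and Stat5b did not. The kinase Pim1 was at 570, 397, 581 and 533 CPM against 203, 151, 227 and 205 CPM (1.41, SE 0.14). The survival gene Bcl2 was lower at 176, 107, 166 and 98.4 CPM against 379, 322, 402 and 397 CPM (-1.50, SE 0.17, adjusted p = 0.000156). No library overlapped for Pim1 or Bcl2.

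Cytokines of conventional T cells were sparse. Of 14 genes in the list of T cell cytokines 7 were tested. Il2, Il17a and Il21 had 2, 0 and 1 UMIs in all regulatory T cells and entered the test through the conventional sums alone, so the direction of their differences was fixed by the low-count filter. Il17a had 0 UMIs in all regulatory T sums and 184, 36, 271 and 148 UMIs in the conventional sums. Against a limit of 3 UMIs over all regulatory T cells, it was at least 36.4-fold lower. Il2 was at 3.15, 0, 2.44 and 0 CPM against 25.3, 35.2, 29.5 and 27.9 CPM (-4.67, SE 0.63).

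Ifng, the cytokine of T helper 1 cells, was at 53.5, 23.5, 2.44 and 3.74 CPM against 225, 235, 179 and 164 CPM (-3.61, SE 0.58, adjusted p = 0.0359). Its call was lost without BPTES replicate 2 (-3.71, adjusted p = 0.121) or DMSO replicate 2 (-3.18, adjusted p = 0.0701). Its 30 UMIs in regulatory T cells came from 8 cells, 11 of them from 1 cell of BPTES replicate 1. Cd40lg, the helper ligand for B cells, was at 37.8, 49.6, 22 and 1.25 CPM against 396, 456, 348 and 389 CPM (-4.13, SE 0.62). The Cd40lg call was lost without BPTES replicate 1 (-4.40, adjusted p = 0.129), BPTES replicate 2 (-4.62, adjusted p = 0.0750) or DMSO replicate 1 (-4.19, adjusted p = 0.124). The interleukin-12 receptor chain Il12rb2 (-3.57, SE 0.40), the TGF-beta co-receptor Tgfbr3 (-3.26, SE 0.39) and the protease Gzmk (-5.38, SE 0.42) were lower too. All regulatory T sums together held 4 UMIs of Gzmk. It entered the test through the conventional sums alone, so the direction of its difference was fixed by the low-count filter.

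The remaining genes with the largest negative differences were less stable. The collagen-binding integrin Itga1 was at 40.9, 0, 17.1 and 13.7 CPM against 308, 230, 202 and 114 CPM (-3.57, SE 0.46). It lost the call without DMSO replicate 1 (-3.59, adjusted p = 0.0636) or DMSO replicate 2 (-3.81, adjusted p = 0.0827). The cytotoxic granule gene Nkg7 (-3.26, SE 0.53) lost it without BPTES replicate 2 (-3.02, adjusted p = 0.103) or DMSO replicate 2 (-3.28, adjusted p = 0.255). The uncharacterised transcript 4933406I18Rik (-3.32, SE 0.54) lost it without DMSO replicate 1 (-3.12, adjusted p = 0.0518) or DMSO replicate 2 (-2.93, adjusted p = 0.0618). Osteopontin (Spp1), which kidney epithelium also makes, was at 9.44 to 27.4 CPM against 32.6 to 506 CPM (-3.18, SE 0.46). Its call was lost without DMSO replicate 1 (-3.21, adjusted p = 0.0587).

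Genes of naive and central memory T cells were mostly lower, with 8 of 15 lower and 1 higher. The insulin-like growth factor binding protein Igfbp4 differed by -2.46 (SE 0.42). Bach2, Bcl2 and Igfbp4 were the members called in each of the 4 fits. Tcf7, which keeps T cells in a stem-like state, was at 110, 91.4, 26.9 and 39.8 CPM against 217, 242, 234 and 273 CPM (-1.99, SE 0.38, adjusted p = 0.0353). The Tcf7 call was lost without BPTES replicate 2 (-2.22, adjusted p = 0.0695) or DMSO replicate 2 (-1.71, adjusted p = 0.0867). Klf2, a factor of circulating T cells, did not pass the test and overlapped (-0.73, adjusted p = 0.268), and the interleukin-7 receptor Il7r did not pass it either (0.16, adjusted p = 0.774).

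Among 23 homing and chemokine receptor genes, 5 were higher and 8 lower, and 5 of these 13 calls (Ccr8, Cxcr4, Cxcr6, Itgae and Itgb1) held in each of the 4 fits that left out 1 library. Apart from Ccr8 and Itgae, Cxcr4 was higher in all libraries (1.08, SE 0.17). Itgb1, the beta-1 integrin, was lower at 268, 313, 244 and 181 CPM against 831, 728, 836 and 763 CPM (-1.68, SE 0.17, adjusted p = 6.93e-05). Cxcr3, a receptor of T helper 1 cells, was at 139, 67.9, 188 and 61.0 CPM against 211, 210, 250 and 220 CPM (-1.09, SE 0.25, adjusted p = 0.0399). Its call was lost without BPTES replicate 2 (-0.96, adjusted p = 0.108) or DMSO replicate 2 (-0.84, adjusted p = 0.107).

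Interferon-stimulated genes were lower where they moved: 8 of 30 were lower and none higher, with a median of -0.41. Ifi213 was at 25.2, 44.4, 29.3 and 24.9 CPM against 120, 122, 109 and 94.0 CPM (-1.85, SE 0.20), Mx1 at 3.15 to 15.7 CPM against 40.4 to 51.0 CPM (-2.09, SE 0.33) and Ifit1 at 0 to 13.1 CPM against 33.1 to 39.6 CPM (-2.70, SE 0.44). These and Ifi206 were called in each of the 4 fits. In contrast, none of 21 tested genes of glutamine and amino acid metabolism, 16 of glycolysis, 20 of mTORC1 and Myc, 13 encoded in the mitochondrial genome or 21 nuclear respiratory chain genes passed the adjusted test in edgeR. At an unadjusted p under 0.05 these lists held 3, 2, 2, 1 and 0 genes. All 13 genes of the mitochondrial genome had a positive difference (median 0.36), as did 18 of the 21 nuclear respiratory chain genes (median 0.12). In the lists of glutamine and amino acids, glycolysis, and mTORC1 and Myc, 11 of 21, 10 of 16 and 8 of 20 were positive. Over all genes tested, 4772 of 9659 were positive.

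Markers of other cell types were compared between the same sums. Of 6 tested endothelial and stromal markers, 3 (Emcn, Kdr and Flt1) were called higher in the regulatory T sums, but their levels overlapped between the classes: Flt1 was at 123, 0, 176 and 16.2 CPM against 53.9, 1.47, 48.9 and 2.79 CPM. In BPTES replicate 1 and DMSO replicates 1 and 2, 1 cell each held 38 of 39, 72 of 72 and 12 of 13 Flt1 UMIs. For Emcn it was 27 of 35, 46 of 48 and 27 of 28 UMIs, and for Kdr 23 of 24, 15 of 16 and 14 of 16. With at most 25% mitochondrial UMIs, which removed 1 regulatory T cell per library, the Flt1 difference was 0.78 with an adjusted p of 0.849, and that of Emcn was 1.20 with an adjusted p of 0.144. The Flt1 call was also lost without DMSO replicate 1 (1.46, adjusted p = 0.155). Kdr (2.15) lost its call without BPTES replicate 1 (2.30, adjusted p = 0.102) or DMSO replicate 2 (1.62, adjusted p = 0.0861). Of 3 tested dendritic cell markers 1 was higher, the transcription factor Zbtb46 (2.04, adjusted p = 0.00754). The epithelial adhesion molecule Epcam (2.60) and the immunoglobulin gene Ighm (1.20) were higher as well. Of the 62 Epcam UMIs in the regulatory T sum of DMSO replicate 2, 51 came from 1 cell. Epcam lost its call without DMSO replicate 2 (2.20, adjusted p = 0.117) and Ighm without BPTES replicate 2 (1.11, adjusted p = 0.177). None of 8 macrophage markers was higher, and Apoe was lower (-2.93), a call lost without the barcodes rich in markers of other cell types (-0.58, adjusted p = 0.286). The 3 tested markers of type 2 innate lymphoid cells were higher, 2 of which are Il1rl1 and Gata3. The call of the other, Ltb4r1 (1.60), was lost without DMSO replicate 1 (1.64, adjusted p = 0.112) or DMSO replicate 2 (1.42, adjusted p = 0.168). Il5 and Il13 were not among the genes tested.

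Against CD8 T cells the differences were larger in number, with 1080 of 10360 genes called (10.4%), 594 higher (5.73%) and 486 lower (4.69%), and 18.8% without overlap between the classes. This count ranged from 504 to 1206 when 1 library was left out. Of the 11 defining genes, 10 were higher, Icos among them at 637, 533, 391 and 321 CPM against 69.0, 64.8, 55.9 and 68.3 CPM (2.82, SE 0.18). Tnfrsf4 was at 282, 254, 489 and 559 CPM against 1.56, 1.63, 2.38 and 2.48 CPM (7.57, SE 0.20, adjusted p = 4.36e-09). It entered this test through the regulatory T sums alone, so the direction of its difference was fixed by the low-count filter. Areg (6.41, SE 0.61) and Tnfrsf9 (4.72, SE 0.40) passed the test here. Areg was detected in 8 of 1307 CD8 T cells and also entered this test through the regulatory T sums. The direction of its difference was thus fixed by the low-count filter too. The classes did not overlap for any of these genes. In the NF-kB list 10 of 15 genes were higher, and in the TNF receptor list 12 of 18.

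The 145 cells were not uniform. Il1rl1 was detected in 66 of them (45.5%), against 4.33% of conventional CD4 T cells and 1.45% of CD8 T cells. Because 1 transcript divides the members, the following values are a description without a test, and cells of 1 library share their source. Members with an Il1rl1 UMI had a median of 12200 UMIs and those without one 10784 UMIs. Klrg1 was detected in 51 of the 66 cells with Il1rl1 (77.3%) and in 16 of the 79 without (20.3%).

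Summed over cells, Klrg1 was at 325 CPM with Il1rl1 and at 48.8 CPM without. Gata3 was at 632 against 152 CPM, Areg at 379 against 88.4 CPM and Tnfrsf9 at 725 against 208 CPM. Pdcd1 was at 338 against 94.5 CPM, and Neb at 486 against 182 CPM. Each of these genes was higher in the cells with Il1rl1 in all 4 libraries. Dscaml1 (163 against 36.6 CPM), Ccr8 (161 against 90.5 CPM) and Tnfrsf4 (560 against 326 CPM) were too. Itgae was higher in 2 of the 4 libraries (270 against 136 CPM over all cells), and so was Pparg.

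A few genes were lower in the cells with Il1rl1. Cxcr3 was at 29.5 CPM with Il1rl1 and 171 CPM without, Tbx21 at 8.43 against 88.4 CPM, and Tcf7 at 9.48 against 106 CPM. Each was lower with Il1rl1 in all 4 libraries. Tbx21 was detected in only 24 members, 29 of its 52 UMIs in BPTES replicate 1 coming from 1 cell, and Tcf7 in 32. Il7r, another gene of memory T cells, went the other way, at 920 CPM with Il1rl1 and 511 CPM without, and was higher with it in all 4 libraries. Il1rl1 was found in 13 of the 64 cells with Cxcr3 (20.3%) and in 53 of the 81 cells without (65.4%). The defining genes differed among themselves. Tnfrsf4, given above, and Il2ra (299 against 176 CPM, in 3 of 4 libraries) were higher with Il1rl1, and Icos was lower (336 against 531 CPM, in 3 of 4). Ctla4 was at 1774 against 1794 CPM, Ikzf2 at 2388 against 2666 CPM and Nrp1 at 470 against 436 CPM, with Il1rl1 and without. Foxp3 was at 428 against 314 CPM and was higher with Il1rl1 in 2 of the 4 libraries. The lymph node homing receptor Ccr7 was found in 7 members.

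**Figure D4:**
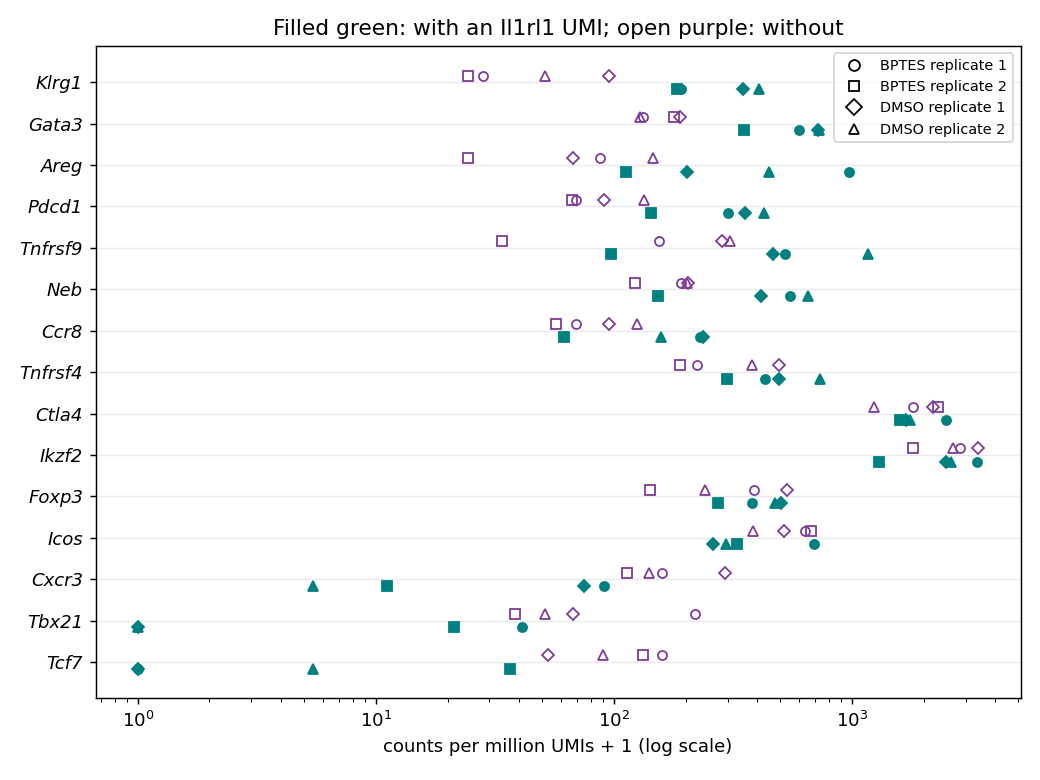
CPM plus 1 (horizontal axis, log scale) of 15 genes in regulatory T cells with an Il1rl1 UMI (filled green) and without one (open purple), by library (symbols). Klrg1, Gata3, Areg, Pdcd1, Tnfrsf9 and Neb are higher with Il1rl1 in all 4 libraries, Cxcr3, Tbx21 and Tcf7 are lower in all 4, and Ctla4 and Ikzf2 lie close together.

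The makeup of the members was compared between treatments by shares of cells. Il1rl1 was detected in 28.6% (exact 95% interval 13.2 to 48.7) and 40.9% (20.7 to 63.6) of regulatory T cells under BPTES. Under DMSO it was detected in 44.7% (28.6 to 61.7) and 56.1% (42.4 to 69.3). The libraries did not overlap, the intervals did, and the exact permutation test gave p = 0.33, its smallest possible value. After thinning to 2000 UMIs the shares were 10.7% and 27.3% against 31.6% and 39.3%.

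Klrg1 was detected in 21.4% and 40.9% of cells under BPTES and in 47.4% and 59.6% under DMSO, and Tnfrsf9 in 46.4% and 36.4% against 60.5% and 80.7%. In the other direction, Tbx21 was detected in 35.7% and 22.7% against 7.89% and 10.5%, and Tcf7 in 28.6% and 40.9% against 18.4% and 14.0%. Tbx21 was highest in BPTES replicate 1, which also held the highest CD8 T, NK and gamma-delta T marker level, whose part was not tested. None of these shares overlapped between the groups, and each gave an exact permutation p of 0.33 (17 genes compared, raw p). That p is the share of all library splits with a difference at least this large. As a background, transcript levels did not overlap between the groups for 32% of all genes tested (below). After thinning, the mean shares under BPTES and DMSO were 14.4% and 25.7% for Klrg1, 18.8% and 43.0% for Tnfrsf9, 13.5% and 3.99% for Tbx21, and 9.90% and 6.20% for Tcf7. Areg was detected in 32.1% and 9.09% of cells under BPTES against 39.5% and 43.9%, with means of 15.3% and 25.7% and an exact permutation p of 0.667 after thinning. Gata3 was found in 81.2% ± 13.8 of cells under BPTES and 82.0% ± 0.620 under DMSO (SD, n = 2), and after thinning in 32.1% and 36.4% against 47.4% and 48.2%, without overlap (exact permutation p of 0.33). The unthinned Gata3 shares overlapped, and the shares of Ccr8, Itgae and Cxcr3 also overlapped. Ctla4 was detected in 92.9% and 81.8% of cells under BPTES against 97.4% and 96.5% under DMSO, without overlap (exact permutation p of 0.33). After thinning its mean shares were 70.6% and 85.9%. Its summed level, given below, lay in the other direction and did not pass the test.

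Transcript levels of the members were then compared between BPTES and DMSO on the 4 sums. Of 6329 genes tested with edgeR, 1 passed an adjusted p of 0.05 (0.0158%), and 292 had an unadjusted p under 0.05 (4.61%). DESeq2 called 3. For 2023 genes (32%) the libraries of the groups did not overlap, which is the background for every such statement below. The gene called was Igha, the constant region of immunoglobulin A, on chromosome 12 from 113254830 to 113260236 (minus strand). BPTES libraries held 46 and 104 UMIs of it and DMSO libraries 5 each, or 150, 284, 12.7 and 6.54 CPM.

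Igha was higher in both BPTES libraries, by 4.58 on the log2 scale (SE 0.50, adjusted p = 0.0395). With 5 UMIs in each DMSO library, Igha entered the test through the BPTES sums alone. The direction of a call was thus fixed by the low-count filter. Igha was detected in 21 of 28 and 22 of 22 cells under BPTES and in 5 of 38 and 5 of 57 under DMSO, with at most 28 UMIs in 1 cell. The call was lost without DMSO replicate 2 (4.05, adjusted p = 0.109) and with the C1q and proximal tubule genes at 0 (4.06, adjusted p = 0.209). Conventional CD4 T cells of the same libraries held 382, 684, 49 and 18 UMIs, or 156, 253, 15.6 and 6.31 CPM. In the fit of both classes the regulatory T sums stood at 142, 266, 12.1 and 6.14 CPM. The treatment difference between the classes was 0.19 (SE 0.48, edgeR adjusted p = 1.00). T cells are not known to make immunoglobulin, and the source of these UMIs was not tested. Of 5 tested plasma cell and immunoglobulin genes 3 had a positive difference. Besides Igha these were Igkc at 461, 579, 119 and 122 CPM (2.11, SE 0.29, adjusted p = 0.129; called without BPTES replicate 1 or 2) and Jchain at 26.2, 65.6, 5.08 and 5.23 CPM (3.10, SE 0.72, adjusted p = 0.542). Jchain, like Igha, entered the test through the BPTES sums alone, so the direction of its difference was fixed by the low-count filter. Of the 3 positive differences, only that of Igkc was not fixed in this way. Ighm, the heavy chain of IgM, was at 343, 388, 498 and 322 CPM, with overlapping groups (-0.16, SE 0.31, adjusted p = 0.999). Xbp1 differed by -0.17.

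**Figure D5:**
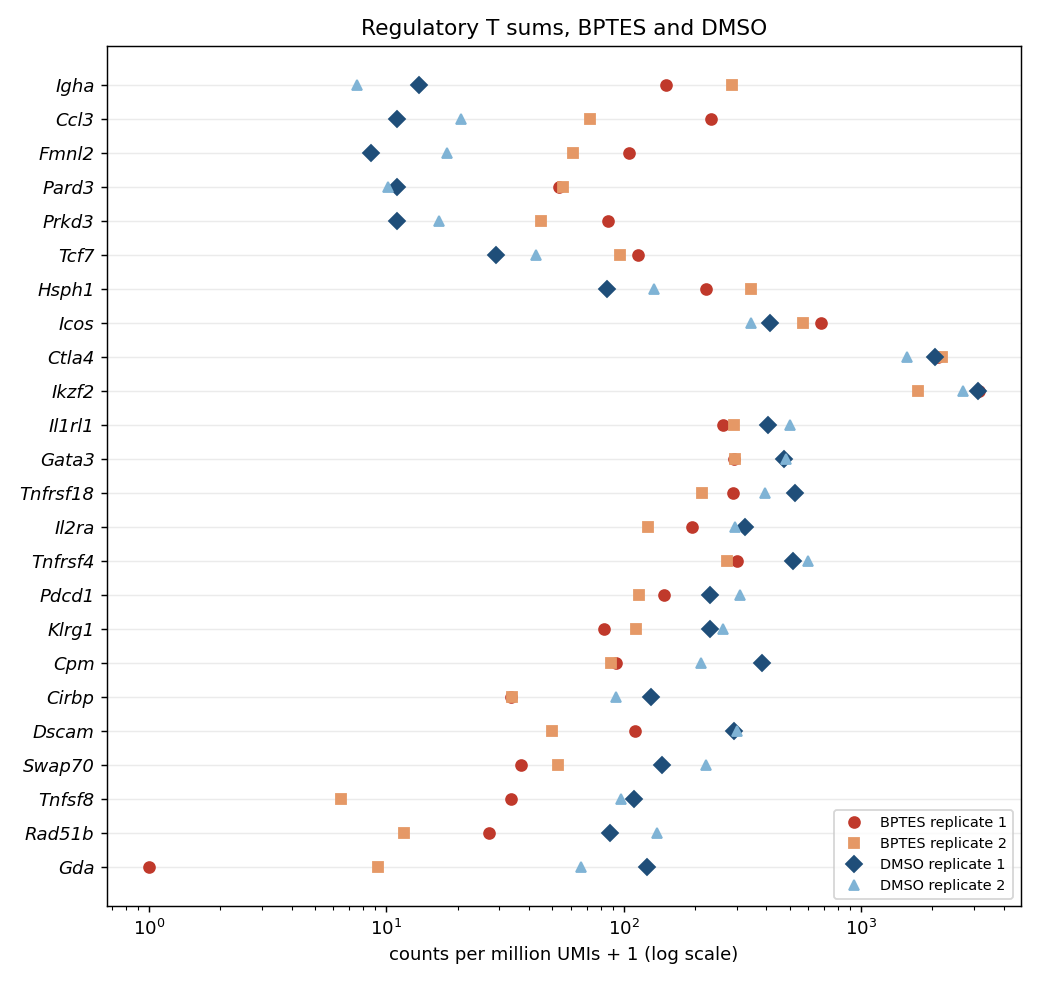
CPM plus 1 (horizontal axis, log scale) of 24 genes in the regulatory T sums of the 4 libraries (symbols and colours). Igha, at 150 and 284 CPM under BPTES and 12.7 and 6.54 CPM under DMSO, is the gene called by edgeR, and the levels of the other genes are shown as values that did not pass the test.

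The defining genes did not pass the test, and most values were lower under BPTES. Tnfrsf4 was at 301 and 271 CPM under BPTES and 518 and 598 CPM under DMSO (-0.97, SE 0.29, adjusted p = 0.872). Il2ra was at 193 and 126 CPM against 325 and 293 CPM (-0.96, SE 0.30, adjusted p = 0.872), and Tnfrsf18 at 288 and 213 CPM against 528 and 394 CPM (-0.88, SE 0.31, adjusted p = 0.931). The groups did not overlap for these 3 receptors. Ctla4 was at 2110 and 2191 CPM against 2047 and 1564 CPM (0.25, SE 0.37), and Ikzf2 at 3140 and 1746 CPM against 3116 and 2698 CPM (-0.25, SE 0.42). Icos lay in the opposite direction, at 680 and 568 CPM against 414 and 343 CPM (0.72, SE 0.30, adjusted p = 0.999).

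Of the 22 genes of tissue regulatory T cells, none passed the test in edgeR, 4 had a positive difference and the median was -0.71, beside 0.016 over all genes tested. At an unadjusted p under 0.05 the list held 5 genes, and 11 of the 22 did not overlap between groups. Il1rl1 was at 262 and 290 CPM against 404 and 501 CPM (-0.72, SE 0.28, adjusted p = 0.999), and Gata3 at 291 and 292 CPM against 475 and 480 CPM (-0.71, SE 0.28, adjusted p = 0.999). Klrg1 was at 81.8 and 112 CPM against 231 and 260 CPM (-1.34, SE 0.30, adjusted p = 0.508). Itgae was at 173 and 57.4 CPM against 262 and 279 CPM (-1.25, SE 0.45), which became -2.23 without BPTES replicate 1 (adjusted p = 0.00322) and -0.66 without BPTES replicate 2 (adjusted p = 0.645). Rora, a nuclear receptor of tissue lymphocytes, was at 605 and 500 CPM against 886 and 1150 CPM (-0.88, SE 0.34). Areg overlapped, at 379 and 73.8 CPM against 140 and 326 CPM (-0.08, SE 0.95).

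The Il1rl1 value was -0.49 without the barcodes rich in markers of other cell types, and it was 0.42 (SE 0.38) with the C1q and proximal tubule genes at 0. Of 17 TNF receptor family genes, 13 did not overlap between the groups and the median was -0.59. Tnfsf8 (CD30 ligand) was at 32.7 and 5.46 CPM against 109 and 96.8 CPM (-2.47, SE 0.58, adjusted p = 0.542). Without BPTES replicate 1 the Tnfsf8 difference was -4.17, and without BPTES replicate 2 it was -1.66. In the fit without BPTES replicate 1 the remaining BPTES library held 2 Tnfsf8 UMIs. Tnfsf8 entered that fit through the DMSO sums alone, so its direction there was fixed by the low-count filter. Tnfrsf9 was at 281 and 71.0 CPM against 394 and 819 CPM (-1.81, SE 0.72, adjusted p = 0.999), and its difference was -3.10 without BPTES replicate 1, -1.13 without BPTES replicate 2 and -1.19 without DMSO replicate 2. Pdcd1 was at 147 and 115 CPM against 231 and 309 CPM (-1.05, SE 0.30, adjusted p = 0.753).

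Values higher under BPTES included Tcf7, at 115 and 95.6 CPM against 27.9 and 41.8 CPM (1.54, SE 0.36, adjusted p = 0.542). Of its 35 UMIs in BPTES replicate 1, 22 came from 1 cell, and with at least 2 Foxp3 UMIs required the Tcf7 difference was 0.65. Heat shock genes also lay in this direction: 11 of 12 were positive, with a median of 0.72, and none passed the test in edgeR, while 4 had an unadjusted p under 0.05. The chaperone Hsph1 was at 222 and 344 CPM against 83.8 and 133 CPM (1.36, SE 0.34, adjusted p = 0.634), and Dnaja1 at 1266 and 1366 CPM against 729 and 539 CPM (1.06, SE 0.35, adjusted p = 0.877). Hspa1a was at 569 and 1030 CPM against 462 and 183 CPM (1.33, SE 0.50), highest in BPTES replicate 2. The Hsph1 difference was called without BPTES replicate 1 (1.63, adjusted p = 0.0157), and that of Hspa1a fell between 0.78 without DMSO replicate 2 and 2.11 without DMSO replicate 1, with 0.83 when BPTES replicate 2 was omitted. Without the barcodes rich in markers of other cell types the values of Hsph1, Dnaja1 and Hspa1a were 1.45, 1.17 and 0.85. Conventional CD4 T cells held 237, 523, 176 and 179 CPM of Hsph1, and the treatment difference between the classes was 0.34 (SE 0.35).

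Genes of glutamine metabolism showed no called change. Glul, which makes glutamine from glutamate, was at 26.2 and 21.9 CPM with BPTES against 33.0 and 91.5 CPM with DMSO (-1.43, SE 0.56, adjusted p = 0.999), and the Glul difference was -0.47 without DMSO replicate 2. The glutamine transporters Slc1a5 (101 and 115 against 119 and 130 CPM), Slc38a1 (177 and 172 against 170 and 128 CPM) and Slc38a2 (236 and 216 against 208 and 235 CPM) differed by -0.20, 0.24 and 0.02. Of 17 tested genes of glutamine and amino acid metabolism, none passed the adjusted test, 1 had an unadjusted p under 0.05, and the median difference was -0.20.

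Apart from the immunoglobulin genes given above, the genes with the smallest p-values are given as values only. They had a mean of at least 5 on the log2 CPM scale and no overlap between groups. Swap70, a lymphocyte signalling protein, was at 36.0 and 51.9 CPM under BPTES and 145 and 222 CPM under DMSO (-2.06, SE 0.37, adjusted p = 0.389). Gda, guanine deaminase, was at 0 and 8.20 CPM against 124 and 65.4 CPM (-4.31, SE 0.76, adjusted p = 0.389), and its UMIs came from 21 cells. The DNA repair gene Rad51b differed by -2.63, the adhesion molecules Dscam and Dscaml1 by -1.90 and -2.06, the carboxypeptidase Cpm by -1.71 and the cold-inducible RNA-binding gene Cirbp by -1.73. Mapkbp1 (-2.85), Nrn1 (-2.61), Raph1 (-1.64) and Sec22a (-2.39) were lower as well. Gda, Mapkbp1, Nrn1 and Sec22a entered the test through the DMSO sums alone. Their direction was thus fixed by the low-count filter, also where Gda and Nrn1 passed the test. Without BPTES replicate 1 the differences were -1.84 for Swap70, -3.46 for Gda, -3.35 for Rad51b and -2.58 for Dscam. Rad51b, with 4 UMIs in BPTES replicate 2, and Gda entered that fit through the DMSO sums alone. Without BPTES replicate 2 the Dscaml1 difference was -3.47. In that fit Dscaml1, with 4 UMIs in BPTES replicate 1, and Gda, with 0 there, entered through the DMSO sums alone. The direction of these differences was thus fixed by the low-count filter. With all 4 libraries but without predicted doublets, Swap70 (-2.33, adjusted p = 0.0346), Rad51b (-2.82, adjusted p = 0.0464), Dscam (-2.13, adjusted p = 0.0464), Nrn1 (-3.04, adjusted p = 0.0464), Dscaml1 (-2.73, adjusted p = 0.0219) and Gda (adjusted p = 0.0179) passed, as did Ccl3 (4.25, adjusted p = 0.0155) and Igkc (2.07, adjusted p = 0.0155) in the other direction. Without the barcodes rich in markers of other cell types, Swap70, Rad51b (both adjusted p = 0.0490), Raph1 (adjusted p = 0.0497), Dscam, Dscaml1 (both adjusted p = 0.0315), Gda (adjusted p = 0.00829) and Igkc (adjusted p = 0.00349) passed.

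Some negative values rested in part on single cells. Of the Dscam UMIs, 46 of 115 in DMSO replicate 1 and 81 of 228 in DMSO replicate 2 came from 1 cell each. For Cpm it was 54 of 150 UMIs in DMSO replicate 1. Several of the positive values rested on few cells. Fmnl2, an actin regulator, had 32 and 22 UMIs from 2 and 4 cells under BPTES and 3 and 13 UMIs under DMSO (2.60, SE 0.52, adjusted p = 0.392). Pard3, a polarity protein, had 16 and 20 UMIs from 3 and 4 cells against 4 and 7 (2.45, SE 0.50). All 71 UMIs of the chemokine Ccl3 in BPTES replicate 1, the library with the highest CD8 T, NK and gamma-delta T marker level, came from 1 cell (3.22, SE 0.65). Without BPTES replicate 2, Fmnl2 (2.94, adjusted p = 0.0469) and Ccl3 (3.83, adjusted p = 0.00145) passed the test. Prkd3 differed by 2.22 and the uncharacterised 1700025G04Rik by 2.14, the latter by 2.58 without BPTES replicate 1. Fmnl2, Pard3, Ccl3, Prkd3 and 1700025G04Rik entered the test through the BPTES sums alone, so their direction was fixed by the low-count filter. The count of calls moved with single libraries. Leaving out BPTES replicate 1 gave 87 calls and leaving out BPTES replicate 2 gave 31. For DMSO replicate 1 the number was 18, and for DMSO replicate 2 it was 4.

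Whether BPTES acted differently on regulatory and on conventional CD4 T cells was asked by testing the difference between the treatment effects of both classes in 1 fit that blocked on library. None of 10728 genes passed an adjusted p of 0.05 in edgeR (0%), 393 had an unadjusted p under 0.05 (3.66%), and DESeq2 called 2. Klrg1 was lower under BPTES in regulatory T cells and higher in the few conventional UMIs, which numbered 20, 14, 8 and 6 (difference -2.82, SE 0.53, adjusted p = 0.185). For Tcf7 the conventional sums stood at 218, 245, 234 and 274 CPM, close together, and the difference between classes was 1.70 (SE 0.36, adjusted p = 0.318). Without BPTES replicate 1 the differences were -2.26 for Klrg1 and 1.48 for Tcf7, and without BPTES replicate 2 they were -3.37 and 1.90. Without DMSO replicate 1 that of Klrg1 was -3.05. These fits keep a lone library in a group, so the spread within that group was not measured. Without predicted doublets both differences passed the test (Klrg1 -2.75, Tcf7 1.76, both adjusted p = 0.0244). Without the barcodes rich in markers of other cell types Tcf7 passed it (1.81, adjusted p = 0.0282).

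The smallest p-values of the interaction belonged to genes of few cells. Fmnl2 differed by 4.77 (SE 0.70, adjusted p = 0.0802). The macrophage receptor Mrc1 had 9, 30, 0 and 1 UMIs in the regulatory T sums (5.94, SE 1.01, adjusted p = 0.177). Of 51 Cp UMIs in regulatory T cells, 47 came from 1 cell of BPTES replicate 1, and 28 of 38 Galnt18 UMIs came from 1 cell of that library. Cp (adjusted p = 0.0186) and Galnt18 (adjusted p = 0.00126) passed the test without the barcodes rich in markers of other cell types, and Fmnl2 (adjusted p = 0.0159) and Mrc1 (adjusted p = 0.0451) without predicted doublets. Slc12a1, a transporter of the thick ascending limb, had 5 UMIs in all regulatory T sums and 306 UMIs in the conventional sum of DMSO replicate 2. These counts also moved with single libraries. Omitting BPTES replicate 1 or 2 gave 215 or 76 genes, and omitting DMSO replicate 1 or 2 gave 35 or 29.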

How the data were processed

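The authors deposited 1 filtered matrix of UMI counts per gene and barcode for each of 4 libraries, not normalized, per the file headers. Cell Ranger 8.0.1 and mm10 are named per the submitters' processing notes. Barcodes were kept with at least 500 UMIs, 300 genes and at most 50% mitochondrial UMIs. The members and gene lists were chosen with earlier results of these data known. Doublets (Scrublet, 30 components, in scanpy 1.11.5, 0.4% per 1000 barcodes) were marked and kept, and removed as an alternative.

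UMIs were summed per library and class and tested in R 4.3.3 with edgeR 4.0.16 (quasi-likelihood, robust, TMM, filterByExpr, Benjamini-Hochberg, 0.05). DESeq2 1.42.0 was an alternative, and the scripts were tested on simulated data. Fold changes are on the log2 scale and CPM values are scaled by TMM within each comparison, except pooled values by Foxp3 UMIs, by Il1rl1 and of marker lists, which are scaled by total UMIs alone. Where 1 library was left out, the lone one was assumed to vary like the others. The labels do not say that libraries of a group came from separate mice, so p-values measure only the spread between these libraries, which may be technical. The depth of the regulatory T sums, 320405 to 785751 UMIs, limits precision for low genes; intervals and floors (3 UMIs) cover counting error only.

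For BPTES against DMSO, immunoglobulin genes were left out of the choice of named genes and given as a group. Among the others, named genes were all genes called (none), filled to 20. The fill took the smallest p among genes whose mean log2 CPM reached 5 and whose groups did not overlap. For the comparison with conventional CD4 T cells, named genes were the 15 highest and 10 lowest differences among called genes with that mean and 1 direction in 4 libraries. For the interaction they were the 5 smallest p-values. List genes could be named with their values. Some genes are not reported here.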

Additional observations from a re-analysis of the deposited data

How the results depend on the processing

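The share of CD3 barcodes kept its direction under every alternative tried, with a log2 ratio between -1.21 and -0.52 when 1 library was left out. For BPTES against DMSO in regulatory T cells, the count of called genes was 1 and became 4 to 87 with 1 library left out, 15 without predicted doublets, 0 with the C1q and proximal tubule genes at 0 (55 cells and 2932 genes tested), 3 by DESeq2 and 120 without the low-count filter. It was 10 without barcodes rich in markers of other cell types and 6 without barcodes over 30000 UMIs, 2 alternatives chosen after seeing the data. For the interaction the count was 0 and became 29 to 215, 30, 3, 2, 46, 10 and 14 in the same order. Against conventional CD4 T cells it was 605 and became 309 to 826 with 1 library left out, 250 with the strict gate, 989 without the low-count filter (45.5% higher, against 55.4%), 944 and 983. Against CD8 T cells it was 1080 and became 504 to 1206, 594 with the strict gate, 1361 without the low-count filter (44.8% higher, against 55.0%), 1696 and 1704. The cause was not tested.

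With the replicate number as a block, 92 genes were called for BPTES against DMSO (58 higher). The labels do not pair libraries, and deviations of same-numbered libraries correlated at 0.184 over 6335 genes. Fits over 2 classes already hold library as a block, so no further replicate block could be added.

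Differences that changed sign were those of Il1rl1 (0.42) for BPTES against DMSO with the strict gate, and Icam1 without other-type barcodes (-0.064) or deep ones (-0.11). In the interaction they were Il1rl1 with at least 2 Foxp3 UMIs (0.032), the strict gate (2.22), without other-type barcodes (0.0039) or deep ones (0.0215), and Igha with the strict gate (-0.34). None of these passed the test.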

Other observations

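Barcodes with Foxp3 that the gate left out numbered more than those it kept. Of 453 barcodes with at least 1 Foxp3 UMI past the filters, 145 were kept. The limit on C1q alone removed 37, the limit on the proliferation genes Mki67 and Top2a alone removed 33 and the limit on Cd8a and Cd8b1 alone removed 32. DMSO replicate 2 gave 18 of the barcodes removed by the proliferation limit and 18 of those removed by the CD8 limit, against 4 to 7 and 3 to 7 in each other library. The 32 barcodes removed by the CD8 limit alone still counted among the CD3 barcodes against which shares were taken.

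Penk and Gzmb were found in few members. Penk, which encodes the opioid precursor proenkephalin and is described in regulatory T cells of tissues, was found in 17 of 145 cells, with 64, 0, 31 and 179 UMIs in BPTES replicates 1 and 2 and DMSO replicates 1 and 2. Gzmb was found in 5 cells, and 34 of its UMIs in BPTES replicate 1 came from 1 cell.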
